A study of Mus musculus with 2 samples.

Results

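The genes described here are 10 Kruppel-like factor (KLF) genes other than Klf1, the erythroid member of the family: Klf2, Klf3, Klf4, Klf5, Klf6, Klf7, Klf9, Klf10, Klf13 and Klf15. They were taken from the gene tables by a list of names with no threshold on level, and all 10 had a row among 43346 gene rows. The tables come from 2 total RNA-seq libraries of whole lung dissected from mouse embryos of strain B6NCrl at embryonic day 16.5. Each library pooled embryos of both sexes, 41 of them in replicate 2 and a number not given in the labels for replicate 1. The animals form 1 group, with no treatment or engineered allele in the labels, so levels and their spread between the pools are described and no condition is compared. With 2 replicates the smallest exact two-sided p is 0.5, and no test was made.

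KLF proteins bind GC-rich DNA, in particular GC boxes and CACCC elements, through 3 zinc fingers at the carboxyl end, each held in shape by a zinc ion between cysteine and histidine residues. The part before the fingers differs between members and recruits the cofactors: KLF3, KLF8 and KLF12 bind the corepressor CtBP, KLF9, KLF10, KLF11, KLF13, KLF14 and KLF16 bind the corepressor SIN3, and KLF1, KLF2, KLF4, KLF5, KLF6 and KLF7 are grouped as binders of acetyltransferases, mostly activators. In lung and its vessels, KLF2 and KLF4 are known as flow-responsive factors of the endothelium, KLF5 as a factor of epithelial maturation around birth, and KLF9 and KLF15 as targets of the glucocorticoid receptor.

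The third finger is shown here because it is the stretch that separates the 2 main Klf7 transcripts. The lines give coding sequence 5′ to 3′ from the GENCODE M21 transcripts (mouse GRCm38, the build of the files), with the codons of the zinc-binding cysteines and histidines in capitals. Klf6 is the closest relative of Klf7 in this group, and Klf4 and Klf13 stand for the activator and SIN3-binding branches.
Klf7-202: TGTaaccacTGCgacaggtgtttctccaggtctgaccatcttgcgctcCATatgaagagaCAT
Klf7-201: TGTaaccacTGCgacaggtaa
Klf6-201: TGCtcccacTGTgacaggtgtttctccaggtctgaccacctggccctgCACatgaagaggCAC
Klf4-201: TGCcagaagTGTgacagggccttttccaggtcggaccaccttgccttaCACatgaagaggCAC
Klf13-201: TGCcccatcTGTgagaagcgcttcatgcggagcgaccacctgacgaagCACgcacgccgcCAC
Klf7-201 keeps both cysteine codons and ends in the stop codon TAA 6 codons into the finger, before either histidine. Over the whole 3-finger stretch of 243 nt, the 10 genes were 57.2% to 81.1% identical in pairs, with a median of 64.2% over 45 pairs. Klf6 and Klf7 had the highest identity, 81.1%, and Klf2 and Klf4 followed at 78.2%. Over whole transcripts, the longest run of identical bases in any pair was 26 nt, shared by Klf6 and Klf7 within the fingers. The expected counts of all 10 genes were whole numbers in both libraries, to a tolerance of 0.005, which 71.4% of the 12732 genes with at least 100 counts in each library also had. A whole count shows no sign of reads divided with another gene.

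The libraries held 38852470 expected counts in replicate 1 and 27145411 in replicate 2. All 8 epithelial, 8 endothelial and 7 mesenchymal markers listed for lung were above 10 TPM in both, where TPM is a transcript's scaled share of the library after division by its effective length. Median levels were 196 and 210 TPM for the epithelial, 97.3 and 97.7 TPM for the endothelial and 139 and 148 TPM for the mesenchymal markers. They were 68.0 and 70.8 TPM for 6 smooth muscle markers, 43.9 and 48.0 TPM for 6 macrophage markers and 117 and 123 TPM for 6 cardiac muscle markers; 4 of these cardiac genes had the lower value in replicate 2, and the median of their 6 differences was -0.43 (log2). Markers of some neighbouring organs were higher in replicate 2. Liver markers had medians of 8.83 and 75.6 TPM, with 6 of 6 genes at least 2-fold higher, from Serpina1a (1.43 and 12.4 TPM) to Afp (18.3 and 155 TPM), and Alb, Apoa2, Ahsg and Ttr between them. Skeletal muscle markers had medians of 10.4 and 35.3 TPM, with 3 of 6 (Acta1, Tnni2 and Myh8) at least 2-fold higher. Thymus and lymphoid markers had medians of 2.80 and 6.40 TPM, with 4 of 6 (Lck, Cd3g, Ptcra and Psmb11) at least 2-fold higher.

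All 10 KLF genes were expressed at 1 TPM or more in both libraries, a level reached by 61.5% of the 21474 genes coding for protein. Of the 10, 7 reached 10 TPM in both, which 40.3% of coding genes did. Their median levels in the libraries were 26.0 and 24.8 TPM, against a median of 19.0 TPM for coding genes above 1 TPM. The highest, Klf10 (42.9 and 46.5 TPM), was 7.98-fold above the lowest, Klf9. The 10 genes summed to 236 TPM in both libraries and made up 88.1% and 87.8% of the TPM of the 17 KLF genes. Because whole organ was sequenced, fewer cells of a type and less RNA per cell cannot be told apart, nor can the cells that hold each transcript.

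**Figure D1:**
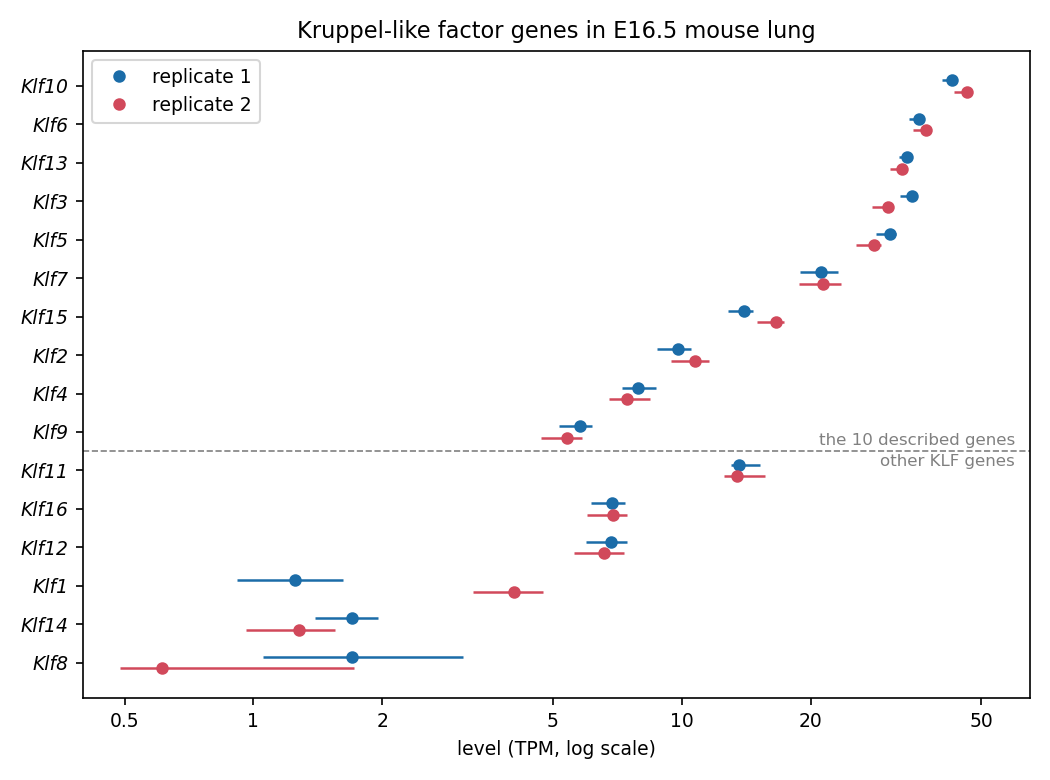
Level in TPM (horizontal log axis) of 16 KLF genes in replicate 1 (blue) and replicate 2 (red); lines are the credibility bounds deposited for each library, and Klf17, listed at 0, is left out. The 10 described genes lie above the dashed line and run from 5.60 TPM for Klf9 to 44.7 TPM for Klf10, with the replicates close together, while Klf1 and Klf8 below the line are spread apart.

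Among the SIN3-binding members, Klf10 (ENSMUSG00000037465.9, chr15:38291463-38300706, minus strand) was the highest of the 10 genes. It was identified as an early gene induced by TGF-beta. Its levels in the first and second library were 42.9 and 46.5 TPM, a mean of 44.7 ± 2.57 TPM (SD, n = 2). Klf13 (ENSMUSG00000052040.9, chr7:63886351-63938915, minus strand), known for work in T cells and heart, was at 33.6 and 32.6 TPM, a mean of 33.1 ± 0.686 TPM. Its 5497 and 3679 expected counts were the most of any of the 10, over a transcript of 6400 nt. Klf9 (ENSMUSG00000033863.1, chr19:23141226-23168134, plus strand), a responder to glucocorticoid and thyroid hormone, was the lowest at 5.78 and 5.41 TPM, a mean of 5.60 ± 0.262 TPM. The SIN3-binding class as a whole, with Klf11, Klf14 and Klf16, held 38.9% and 39.4% of KLF TPM.

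The acetyltransferase-binding members spanned a similar range and held 39.8% and 40.5% of KLF TPM together with Klf1. These shares use the deposited level of Klf7, which came to 7.22 TPM with all its reads on its longest transcript. Klf6 (ENSMUSG00000000078.6, chr13:5861482-5870394, plus strand), an early response gene of tissue injury, was second of the 10 at 35.9 and 37.2 TPM, a mean of 36.5 ± 0.926 TPM. Klf5 (ENSMUSG00000005148.7, chr14:99298691-99315036, plus strand), needed for epithelial maturation in the lung, was at 30.7 and 28.2 TPM, a mean of 29.4 ± 1.81 TPM. Klf7 (ENSMUSG00000025959.9, chr1:64029447-64122282, minus strand), best known in developing neurons, was at 21.2 and 21.4 TPM, a mean of 21.3 ± 0.134 TPM. The endothelial pair was lower than these. Klf2 (ENSMUSG00000055148.7, chr8:72319033-72321656, plus strand), first described as the lung Kruppel-like factor, was at 9.83 and 10.8 TPM, a mean of 10.3 ± 0.665 TPM. Klf4 (ENSMUSG00000003032.8, chr4:55527143-55532466, minus strand), known also as a pluripotency factor, was at 7.89 and 7.46 TPM, a mean of 7.68 ± 0.304 TPM.

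Klf3 (ENSMUSG00000029178.10, chr5:64803388-64832901, plus strand) carried most of the CtBP-binding class. It is a repressor that is itself a target of Klf1 in red cells, and whole lung does not place its RNA outside them. Its levels were 34.6 and 30.3 TPM, a mean of 32.4 ± 3.04 TPM. The class, with Klf8 and Klf12, held 16.1% and 13.9% of KLF TPM. Klf15 (ENSMUSG00000030087.7, chr6:90462576-90475238, plus strand), a regulator of amino acid and glucose metabolism that is in neither class, was at 14.0 and 16.6 TPM, a mean of 15.3 ± 1.83 TPM.

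The order of levels from the top was Klf10, Klf6, Klf13, Klf3, Klf5, Klf7, Klf15, Klf2, Klf4 and Klf9. A pair was called separated when both libraries gave the same sign and the mean log2 ratio exceeded 2 SD, and 43 of 45 pairs were. The rule is a loose description and not a test. The count was made on the deposited TPM only. The share of separated pairs among other genes of similar level was not computed, so nothing particular to the described genes is read from the count. Klf13 and Klf3 changed places between the libraries, with a mean log2 ratio of 0.03 ± 0.11. Klf6 was above Klf3 in both, but by a log2 ratio of 0.05 in replicate 1 and 0.30 in replicate 2, which the rule does not separate. Among neighbours the widest step was from Klf15 to Klf2, a log2 ratio of 0.57 ± 0.08. Klf6 over Klf13 was among the narrowest of the separated steps, 0.14 ± 0.07, and it was no longer separated when all reads of a gene were put on its longest transcript (0.17 ± 0.10). That setting, chosen after seeing the data, also moved Klf7: Klf7 over Klf15 turned from 0.48 ± 0.16 to -1.08 ± 0.20, and Klf7 came to 7.22 TPM, below Klf2 and Klf4. The order is one of levels per length: with counts not divided by length, Klf6 lay above Klf10 (log2 ratio of Klf10 over Klf6, -0.19), Klf13 above Klf6 (-0.44 for Klf6 over Klf13), Klf7 above Klf5 (-0.20 for Klf5 over Klf7) and Klf4 above Klf2 (-0.32 for Klf2 over Klf4).

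In the structural pairs chosen here that reach outside the group, the described gene was the higher partner. That does not hold for every possible pair. Klf9 (5.78 and 5.41 TPM) was below its SIN3-binding relatives Klf11 (13.6 and 13.5 TPM) and Klf16 (6.88 and 6.92 TPM). Klf3 was above its CtBP-binding relatives by a log2 ratio of 2.27 ± 0.10 over Klf12 and 4.99 ± 0.91 over Klf8. With counts not divided by length, the ratio over Klf8 was 4.34 ± 0.33. Klf10 was above Klf11, the other TGF-beta induced gene of its branch, by 1.72 ± 0.09, and Klf13 was above Klf16 by 2.26 ± 0.04. Within the group, Klf5 was above Klf4 (Klf4 over Klf5, -1.94 ± 0.03), Klf13 was above Klf9 (Klf9 over Klf13, -2.57 ± 0.04) and Klf6 was above Klf7 by 0.78 ± 0.03. Klf2 and Klf1 were not separated by the rule, with log2 ratios of 2.98 in replicate 1 and 1.41 in replicate 2.

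The other 7 KLF genes had medians of 1.70 and 4.06 TPM. Klf11 was the highest of them at 13.6 and 13.5 TPM, within the range of the described genes. Klf16 was at 6.88 and 6.92 TPM and Klf12 at 6.84 and 6.60 TPM, between Klf9 and Klf4. Klf14 was at 1.70 and 1.28 TPM. Klf8 was at 1.70 and 0.61 TPM on 114 and 52 counts, with a library-scaled count ratio, replicate 2 over replicate 1, of 0.638 (exact 95% counting interval 0.450 to 0.892). Klf17 had 0 counts in both, which allows up to 0.0499 and 0.0704 TPM, counting error only. Of the 9 related SP genes, whose proteins share the 3 fingers, Sp3 was the highest at 49.9 and 49.8 TPM, above Klf10 in both libraries. Sp2 (18.8 and 15.6 TPM), Sp1 (9.87 and 10.2 TPM), Sp4 (6.55 and 5.53 TPM) and Sp5 (4.80 and 4.29 TPM) lay in or just below the range of the described genes. Sp7 (1.31 and 0.21 TPM), Sp6 (0.50 and 0.52 TPM) and Sp8 (0.03 and 0.01 TPM) were low, and Sp9 was listed at 0.

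The 10 genes differed little between the pools. Differences are those of log2(TPM + 1), with replicate 1 subtracted from replicate 2. None of the 10 differed 2-fold, where 2.67% of the 15493 genes averaging 1 TPM or more did and 1.41% of the 7323 genes between the levels of Klf9 and Klf10 did. Their median absolute difference was 0.098, near the 0.107 of all genes above 1 TPM and the 0.101 of the genes in their range. On TPM, 5 were higher in replicate 2 and 5 lower; on counts with TMM or DESeq2 scaling Klf7 changed sign, which made 4 higher and 6 lower.

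The largest difference was that of Klf15, 0.23 on the log2 scale, from 833 counts in replicate 1 to 700 in the smaller replicate 2. Scaled to library size, its counts were 1.17-fold higher in replicate 2, with an exact 95% counting interval of 1.06 to 1.30 that covers counting error only. Klf15 is also expressed in liver and muscle. The 6 liver markers together were at 51.0 and 430 TPM and the 6 skeletal muscle markers at 155 and 441 TPM in the same libraries, and their part in the Klf15 value was not tested.
Klf3 had the largest difference the other way, -0.19, with a count ratio of 0.878 (interval 0.817 to 0.943). The interval left out 1 also for Klf10 (1.02 to 1.13), Klf13 (0.897 to 0.975) and Klf5 (0.832 to 0.991), so for 5 of 10 genes, where 35.3% of genes in their range had such an interval. The intervals are not adjusted for the number of genes, and nothing particular to the 10 is read from this count. For Klf2 (0.942 to 1.25), Klf4 (0.824 to 1.06), Klf6 (0.978 to 1.08), Klf7 (0.889 to 1.05) and Klf9 (0.802 to 1.07) a difference was not detectable at this depth.

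**Figure D2:**
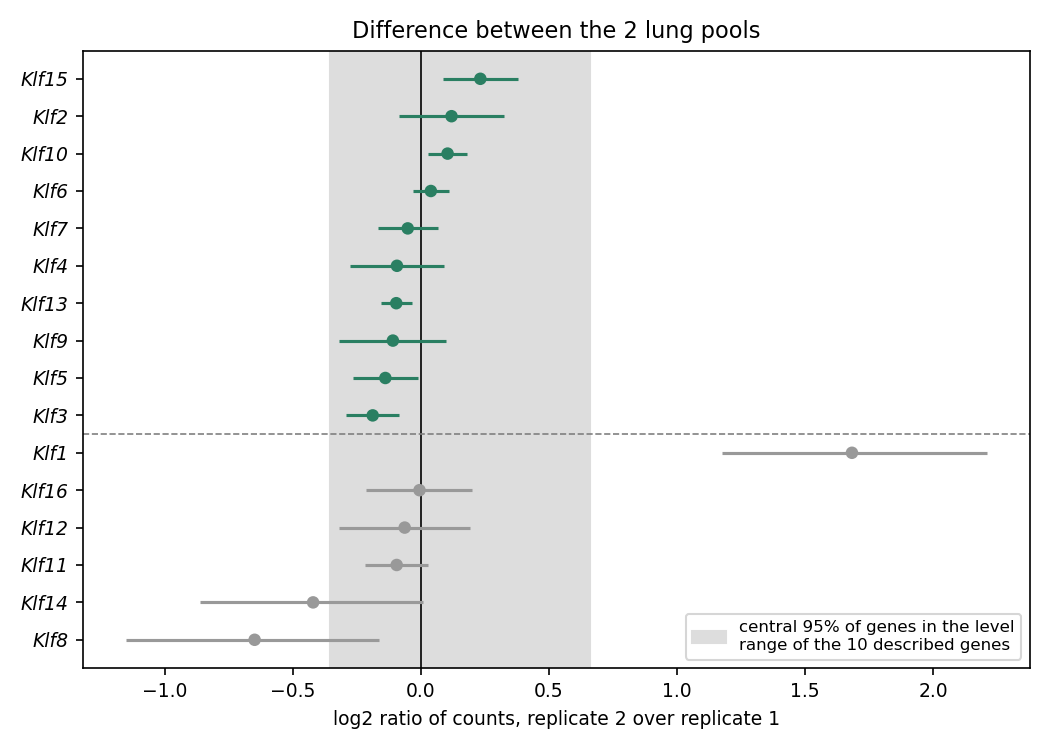
Log2 ratio of counts, replicate 2 over replicate 1 after TMM scaling (horizontal axis), for the 10 described genes (green) and 6 other KLF genes (grey); lines are exact 95% counting intervals and the band holds the central 95% of the 7323 genes in the level range of the 10, from -0.36 to 0.66. All 10 green points lie inside the band, and Klf1 lies to the right of it with its whole interval. The points of Klf8 (ratio 0.638) and Klf14 (ratio 0.747) lie to the left of the band, with intervals that reach into it. Klf1, Klf8 and Klf14 are all below the level range of the band, which is therefore not the spread of genes of their level.

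Klf1, the erythroid factor left out of the group, was at 1.25 and 4.06 TPM, on 47 and 108 counts. Its count ratio was 3.21 (interval 2.26 to 4.63), and it was the only KLF gene past 2-fold on the log2(TPM + 1) scale. Klf8, at 1.70 and 0.61 TPM, differed by -0.75 on that scale, where the added 1 TPM shrinks the differences of low genes. Its effective length was 2561 nt in replicate 1 and 4585 nt in replicate 2, so its TPM fell further than its counts (ratio 0.638). All 6 erythroid markers were also higher in replicate 2, with medians of 63.6 and 77.5 TPM: Hba-a2, the highest, was at 19266 and 21227 TPM and Epb42, the lowest, at 0.88 and 2.71 TPM. Their part in the Klf1 value was not tested. Klf3, the member tied to Klf1 in red cells, was lower in replicate 2, as given above.

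Klf7 stood apart in its transcripts. Of the other 9 genes, only Klf4 and Klf13 also had forms not annotated with all 3 fingers. Klf7-201 (1477 nt) took 64.7% of Klf7 TPM in replicate 1 and 70.7% in replicate 2, Klf7-202 (7662 nt) took 22.0% and 19.9%, and Klf7-203 (553 nt) took 13.3% and 9.42%. Klf7-202 codes for 301 residues with all 3 fingers, whereas Klf7-201 codes for 285 residues with 2 complete fingers. Their coding sequences are the same for 855 nt, up to the stop shown above. The last exon of Klf7-201, chr1:64041926-64042437, overlaps the Klf7-202 exon chr1:64042314-64042437 and runs 388 nt past its end, with 384 nt after the stop codon. Klf7-203 is annotated without the end of its coding sequence, so its fingers cannot be read from the model.

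Transcripts annotated with all 3 fingers thus made up 20.9% ± 1.45 (SD, n = 2) of Klf7 TPM. The same form held 63.5% and 59.7% of the expected counts of the gene, 919 and 596 reads against 494 and 386 for Klf7-201, because TPM divides by length. The gene level follows this division. With all Klf7 reads placed on Klf7-202, an alternative chosen after seeing the data, Klf7 came to 7.32 and 7.13 TPM, 2.95-fold below the deposited mean and below Klf15, Klf2 and Klf4. Whether the reads assigned to the last exon of Klf7-201 came from spliced RNA was not tested.

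**Figure D3:**
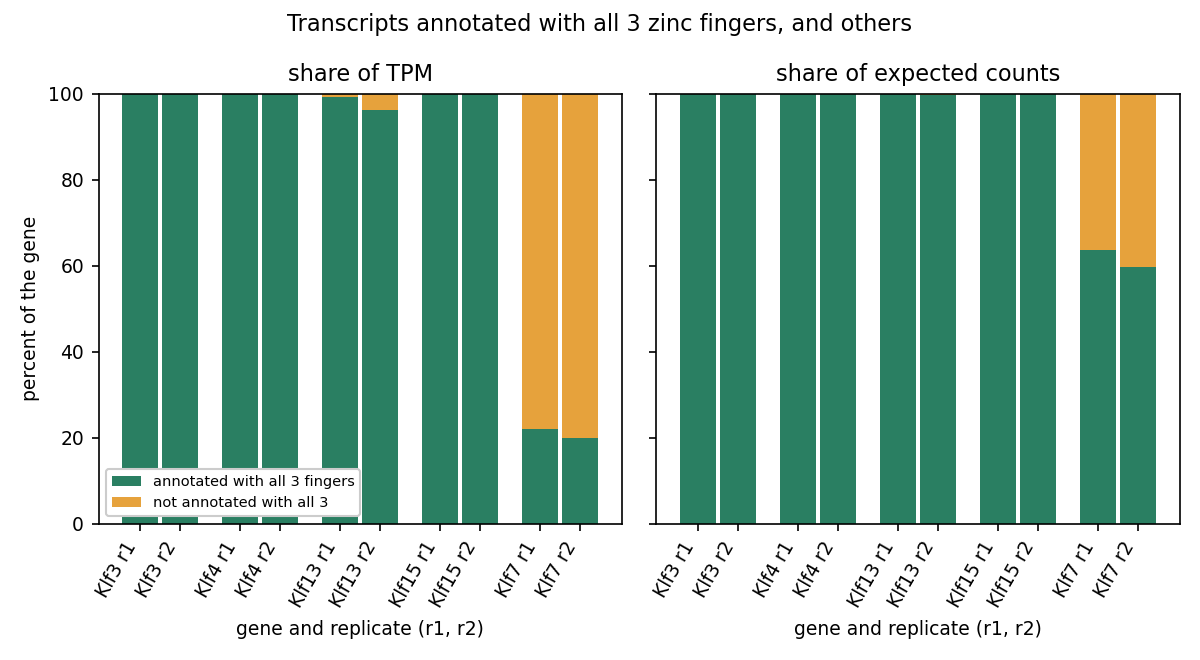
Percent of each gene's TPM (left) and expected counts (right) in transcripts annotated with all 3 zinc fingers (green) and in all other transcripts (orange), for the 5 described genes with more than 1 transcript in the tables, by replicate. The orange part of Klf7, which includes Klf7-203 with its unread coding end, is the largest, with 22.0% and 19.9% of TPM and 63.5% and 59.7% of counts in green.

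The other 9 genes were quantified almost wholly as 3-finger forms. For all of them but Klf4 and Klf13 the annotation fixed this, as every listed transcript codes for the 3 fingers. Klf2, Klf5, Klf6, Klf9 and Klf10 had a single transcript in the deposited tables. Klf3-201 took 95.5% and 98.9% of Klf3 TPM, and Klf3-202 codes for the same 344 residues. Klf15-201 took 97.1% and 100%, and Klf15-202 codes for the same 415 residues. Klf4-201 took 100% in both libraries, or 95.9% by the posterior mean estimate. Klf13-201, with the 3 fingers, took 99.3% and 96.3% of Klf13 TPM, and its 3 short forms lack them. The deposited model was shorter than the later annotation for Klf3-201 (2314 against 5221 nt), Klf5-201 (1721 against 3352 nt) and Klf9-201 (3263 against 4486 nt). The effect of those missing stretches on the 3 levels was not tested.

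Few reads lay on annotated genes that overlap the 10. Opposite Klf13, Gm27252 was at 1.10 and 1.37 TPM on 17 and 15 counts, and E030018B13Rik at 0.04 and 0.06 TPM. Opposite Klf3, Gm20033 was at 0.91 and 0.73 TPM on 11 and 6 counts. Opposite Klf7, Gm13748 had 3 counts in replicate 1 and 0 in replicate 2, and Gm26649 had 0 in both. The strand setting of the counting is not given in the sources used here, so reads of Klf3, Klf7 and Klf13 and of these opposite genes cannot be told apart by strand.

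The promoters of Klf2 and Klf4 are shown because MEK5, ERK5 and MEF2 act upstream of both in endothelium and those genes were measured. Each run is the 250 bases before the RefSeq start (GRCm38.p6), 5′ to 3′ on the gene's strand. Capitals mark CACCC and GGGCGG on either strand and, in Klf2, a match to the MEF2 consensus. The lines are chr8:72318812-72319061 on the plus strand and chr4:55532476-55532725 on the minus strand.
Klf2 promoter: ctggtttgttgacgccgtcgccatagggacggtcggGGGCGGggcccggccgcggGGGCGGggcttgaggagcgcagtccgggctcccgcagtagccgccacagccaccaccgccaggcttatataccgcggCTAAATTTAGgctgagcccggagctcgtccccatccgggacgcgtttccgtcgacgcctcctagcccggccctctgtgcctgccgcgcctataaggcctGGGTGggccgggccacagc
Klf4 promoter: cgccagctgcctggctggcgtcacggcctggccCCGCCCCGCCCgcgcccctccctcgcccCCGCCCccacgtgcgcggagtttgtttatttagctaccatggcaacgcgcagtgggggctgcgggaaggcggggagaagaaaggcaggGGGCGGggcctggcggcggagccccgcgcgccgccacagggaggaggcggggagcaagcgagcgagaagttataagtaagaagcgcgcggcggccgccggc
The MEF2 match was found in 1 of 8 promoters of the group, that of Klf2, and in 2.92% of 32851 promoters of the same length. GGGCGG, the GC box that KLF and SP proteins bind, was found in 7 of 8, with Klf9 the exception, against 32.7% of all promoters. CACCC was found in 6 of 8, all but Klf4 and Klf6, against 52% of all promoters. Klf3 held the most, 5 CACCC and 6 GGGCGG matches, which may overlap. The RefSeq starts are not always those of the gene spans given above. The windows of Klf2, Klf3 and Klf6 run past the start of that span into the gene, and the window of Klf7 lies wholly inside it. TATAAA was found in none of the 8 and in 12.4% of all. Each motif was searched on both strands, and a match is a description of letters, not a site. The promoters of the 8 genes were 59.2% to 78.4% G and C, above the 52.4% median of all promoters. The table had no entry for Klf5 or Klf10.

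Genes that act with or around the KLF proteins were present, with list medians from 9.95 to 65.8 TPM, and none of these 6 lists had a gene 2-fold different between the pools. The 9 corepressors and coactivators were all above 1 TPM, with medians of 63.5 and 65.8 TPM, from the acetyltransferase Kat2b (4.10 and 4.38 TPM) to the deacetylase Hdac1 (207 and 204 TPM). The 6 ubiquitin ligases that act on KLF proteins had medians of 11.6 and 9.95 TPM, from Fbxw7 (6.50 and 6.81 TPM) to Itch (46.3 and 45.2 TPM), the ligase known for KLF10.
Upstream of Klf2 and Klf4, 12 genes were listed for flow and for the MEK5-ERK5-MEF2 and cerebral cavernous malformation (CCM) pathways. All were above 1 TPM, with medians of 20.8 and 21.7 TPM. The kinase Map3k2 was the lowest at 2.65 and 2.85 TPM and the CCM gene Pdcd10 the highest at 76.9 and 77.5 TPM. All 12 except Map3k2 were thus above Klf2 itself in both libraries. The 7 endothelial targets of KLF2 and KLF4 had medians of 41.5 and 37.3 TPM, from Edn1 (7.04 and 5.87 TPM) to Cav1 (556 and 550 TPM). All 7 were lower in replicate 2, by a median log2 difference of -0.12 and by -0.015 for Cav1. The median over all genes averaging 1 TPM or more was 0.0015. Klf2 was higher and Klf4 lower there, neither detectably. The list was not divided into induced and repressed targets, so nothing is read from the shared direction. The endothelial markers were split, 4 higher and 4 lower.

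The 7 glucocorticoid genes listed beside Klf9 and Klf15 were all above 1 TPM, with medians of 31.0 and 34.7 TPM, from Zbtb16 (6.34 and 8.44 TPM) to Tsc22d3 (99.5 and 108 TPM), which codes for a glucocorticoid-induced leucine zipper protein. Of them 4 were higher and 3 lower in replicate 2, while Klf15 was higher and Klf9 lower. Of the 10 TGF-beta pathway genes (ligands, receptors, SMADs and targets) listed beside Klf10, 9 were above 1 TPM in both, with medians of 20.9 and 19.4 TPM. The highest was the ligand Tgfb2 at 85.6 and 88.1 TPM, above Klf10 in both libraries. Of the 9, 4 were higher and 5 lower in replicate 2, where Klf10 was higher.

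**Figure D4:**
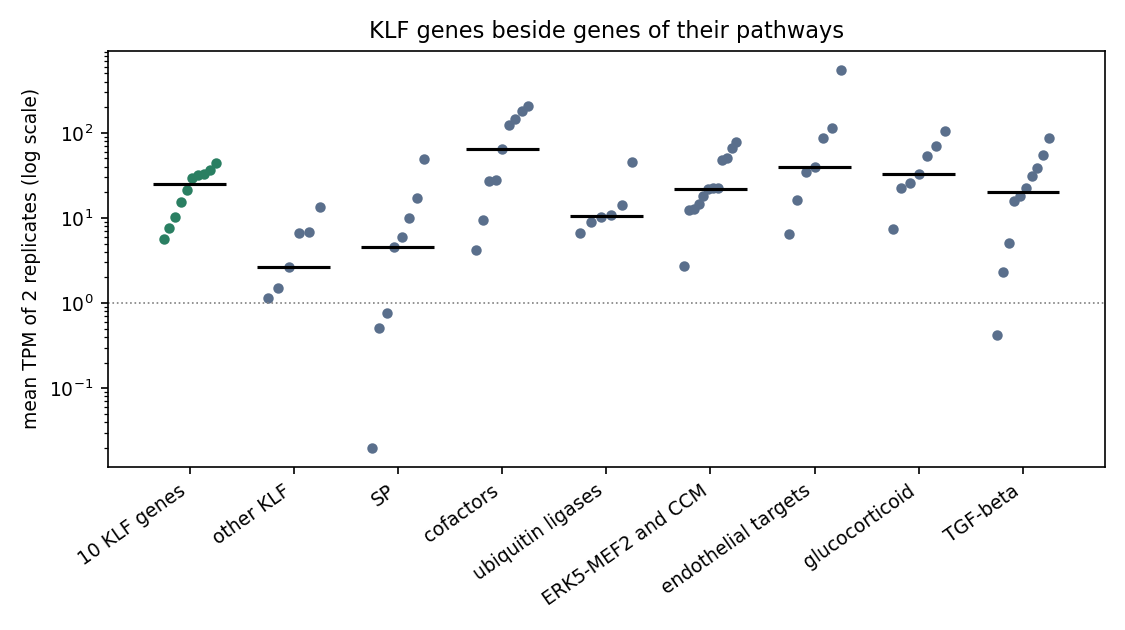
Mean TPM of the 2 replicates (vertical log axis) for each gene of the 10 described (green) and of 8 lists (grey-blue), with the list median as a black bar; the dotted line is 1 TPM, and Klf17 and Sp9, at 0, are not drawn. The 10 genes lie between 5.60 and 44.7 TPM, and the medians of the other KLF genes and of the SP genes lie below all 10.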

How the data were processed

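Gene and transcript tables of 2 lung libraries were used. Per the labels' protocols, RNA over 200 nt was extracted with a mirVana kit, and 10 ng entered each library. Reads were quantified on mm10 with GENCODE M4, per the deposited notes. The quantifier and strand setting are not given in the sources used here, though the columns have the RSEM layout. Expected counts, as the authors deposited them, are estimated reads per feature. The deposited TPM is a length-scaled share that includes spike-ins. The deposited FPKM divides by length and reads assigned. The deposited percent is a transcript's share of its gene's TPM, and the deposited score columns are credibility bounds.

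The genes, lists and ratios were chosen with earlier results of these data known. Symbols came from GENCODE M21, which matched 42462 of 43346 gene rows. For every gene the mean and SD over n = 2, and the log2(TPM + 1) difference, were computed. The pseudocount was 1 TPM, and 2-fold calls required a mean of 1 TPM. The libraries are separate pools, so the spread covers pools and handling together. Counts were rounded for edgeR 4.0.16 (TMM) and DESeq2 1.42.0 (size factors) in R 4.3.3, which served for scaling only. Count ratios carry exact (Clopper-Pearson) 95% intervals, and a count of 0 allows up to 3 counts. Promoter and transcript sequences came from RefSeq and GENCODE tables. Of the lists, the lowest and highest genes and any past 2-fold are named, and transcripts are named when leading or at a mean share of 10%, with other forms added after their values were seen. One gene that this rule names is not reported here. Other steps used Python 3.11.15, NumPy 2.4.6, pandas 2.3.3 and SciPy 1.17.1, with matplotlib 3.10.9 for plots.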

Additional observations from a re-analysis of the deposited data

How the results depend on the processing

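Of 193 alternative values over 50 results, 158 were labelled the same, 26 moved, 6 reversed, 2 became separated and 1 was no longer separated. The same label covers values within the spread or on the same side of the rule. It was also given to some counts, which have no spread: detected members went from 10 to 7 at a threshold of 10 TPM. The median level of the 10 genes was 25.4 TPM, 26.7 TPM rescaled over gene rows, 22.4 TPM with all reads on the longest transcript, and 17.2 in FPKM. The count of genes 2-fold different between replicates was 413, and 549 with no filter on level, which was labelled the same. It moved to 659 with a pseudocount of 0.1 TPM, 173 with TMM-scaled CPM and 73 at a mean of 10 TPM. Without length division the log2 ratio was -0.19 for Klf10 over Klf6, -0.44 for Klf6 over Klf13, -0.20 for Klf5 over Klf7 and -0.32 for Klf2 over Klf4, each of the other sign (the last counted under neighbours and again under paralogues), while Klf13 over Klf3 (1.53) and Klf2 over Klf1 (2.47) became separated. With all reads on the longest transcript, a choice made after seeing the data, Klf7 over Klf15 was -1.08, of the other sign, and Klf6 over Klf13 was 0.17. These changes follow from the length used. The median log2 difference over all genes lay between -0.02 and 0.00 under every scaling. Differences and ratios have no spread without one of 2 replicates, so leaving one out was run for levels and transcript shares only. With n = 2 the value that remains always lies within the SD of the mean. Those levels and shares could therefore only be labelled the same, and they say nothing on stability. No paired analysis was possible because the samples form 1 group. Depth limits the low genes most: Klf1 rests on 47 and 108 counts and Klf8 on 114 and 52.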
